A study of Homo sapiens with 4 samples.

Results

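The genes described here are 10 members of the JAK-STAT pathway: the kinase genes JAK1 and JAK2, the transcription factor genes STAT3, STAT5A, STAT5B and STAT6, and the inhibitor genes SOCS1, SOCS2, SOCS3 and CISH. They were chosen by name, as 10 of the 16422 genes that the arrays could be matched to, and they were read by 18 of the 41000 probes. Total RNA was profiled from 4 cultures, with 1 array each: parental SkBr3 cells, 1 lapatinib-resistant clone of SkBr3, parental BT474 cells, and 1 lapatinib-resistant clone of BT474. SkBr3 and BT474 are breast cancer cell lines with amplified HER2, and lapatinib is a kinase inhibitor of EGFR and HER2. The parental cells are labelled as vehicle-treated. The clones, called SkBr3/Lap and BT474/Lap here, were selected in lapatinib that was raised to 1 μM, so selection, the drug itself and the choice of a single clone cannot be told apart. The sample labels number the clones 3 for SkBr3 and 6 for BT474, and the study's text has these numbers the other way round. Each line was compared with its own parent, which asks how the genes differ once cells have become resistant. With 1 array per group, no difference has a replicate behind it.

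Cytokine and hormone receptors of this pathway have no kinase activity of their own. JAK kinases bound to the receptor tails phosphorylate each other and the receptor when a ligand binds, and STAT proteins dock there, are phosphorylated, pair up and enter the nucleus to switch on genes. Among these genes are the SOCS genes and CISH, whose proteins bind back to the kinases and receptors and shut signaling down. In the mammary gland, prolactin acting through JAK2 and STAT5 drives milk gene expression, STAT6 mediates responses to IL-4 and IL-13, and STAT3 is activated by IL-6-type cytokines.

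CISH and SOCS3 were the members that lay at least 2-fold from the parent in the same direction in both clones, CISH lower and SOCS3 higher, and their upstream sequences are shown for that reason. STAT dimers bind the letters TTCNNNGAA, where N is any base, a palindrome that reads the same on both strands. In the RefSeq annotation of GRCh38.p14, 9 of the 10 members had a promoter window, with 17 windows in all. The 250 bases before the start of CISH (chr3:50611775-50612024, minus strand) held 4 matches, which are in capitals, and those before the upstream start of SOCS3 (chr17:78360926-78361175, minus strand) held none.
CISH: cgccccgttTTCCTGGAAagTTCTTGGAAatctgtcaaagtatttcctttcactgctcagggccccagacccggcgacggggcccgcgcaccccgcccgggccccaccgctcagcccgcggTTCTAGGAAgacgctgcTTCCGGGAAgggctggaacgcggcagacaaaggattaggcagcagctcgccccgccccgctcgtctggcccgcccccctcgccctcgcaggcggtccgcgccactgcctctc
SOCS3: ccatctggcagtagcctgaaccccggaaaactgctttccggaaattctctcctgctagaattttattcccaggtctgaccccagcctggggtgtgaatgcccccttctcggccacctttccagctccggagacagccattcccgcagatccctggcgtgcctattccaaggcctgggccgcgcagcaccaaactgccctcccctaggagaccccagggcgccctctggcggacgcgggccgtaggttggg
The matches in CISH lie at -241, -230, -129 and -112, counted from the start to the first base of the match, and read TTCCTGGAA, TTCTTGGAA, TTCTAGGAA and TTCCGGGAA. CISH was the 1 member with a match. Of 35116 promoter windows of 250 bases, 6.57% held at least 1 match and 5 (0.0142%) held 4 or more. The spacing TTCNNNNGAA, which STAT6 prefers, was found in a window of 1 member, STAT5A, against 5.38% of all windows. A match is a stretch of letters only, and no binding was measured here.

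The signal of a probe is its processed intensity on the array, and its level is the log2 of that signal minus the array's own 75th percentile, which was 1115 and 2074 for SkBr3 and its clone and 1158 and 1681 for BT474 and its clone. Because of this scaling a signal can be higher in a clone while its level is not. A difference is the level in the clone minus that in its parent, and the value after ± is the error that the array software gives for the spots, which covers the spread within an array and not between cultures. Between 66.6% and 74.0% of the probes were well above background, and no member was saturated. SkBr3/Lap was on a slide of its own and the other 3 arrays shared a slide, so slide and resistance cannot be told apart in SkBr3. All 8 luminal epithelial markers were well above background on all 4 arrays, and 1 of them, ERBB2, the gene of HER2, was at least 2-fold lower in SkBr3/Lap (-1.90). In the order SkBr3, SkBr3/Lap, BT474, BT474/Lap, which is used for every run of 4 values here, 7, 7, 5 and 6 of 8 leukocyte markers were so. Their summed signal, as a multiple of the 75th percentile, was 11.8, 45.7, 1.59 and 1.66, carried by CSF1R and LCP1 in the SkBr3 pair and by HCLS1 and LCP1 in the BT474 pair, while PTPRC, which defines leukocytes, was at background throughout. Of 6 fibroblast markers 1, 3, 1 and 1 were well above background, and COL1A2, DCN and LUM were at background on every array. COL3A1 was at least 11.7-fold and PDGFRB at least 2.18-fold higher in SkBr3/Lap. Dimmer COL3A1 probes gave limits of only 1.67-fold and 1.03-fold in SkBr3/Lap. Of 5 endothelial markers 2, 4, 1 and 2 were well above background. PECAM1 was higher in both clones, by at least 5.38-fold and 2.38-fold, and CDH5 was 8.43-fold higher in SkBr3/Lap. Summed fibroblast signals were between 1.03 and 1.5, and endothelial ones between 0.176 and 0.789, on that scale. The part of such markers in the values below was not tested, and in RNA from whole cultures fewer expressing cells and less RNA per cell cannot be told apart. Of 8 reference genes, 7 lay within 2-fold in SkBr3/Lap and 8 in BT474/Lap, the exception being GUSB, a lysosomal enzyme, at -1.12 in SkBr3/Lap.

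Of the 18 member probes, 17 passed the filter, a signal of at least 100 on at least 1 array, and the exception was a second SOCS3 probe. In SkBr3/Lap, 3 of the 17 were at least 2-fold above SkBr3, 2 were at least 2-fold below it and 12 were neither. The higher ones read STAT5A and SOCS3 and the lower ones CISH. Both STAT5A probes passed the filter through the SkBr3/Lap array alone, the array where they are high. Over all 25927 probes that passed the filter, 12.9% were higher by that much and 15.6% lower, so the members' shares of 17.6% and 11.8% were near the background. In BT474/Lap, 3 of the 17 were at least 2-fold above BT474, 3 were at least 2-fold below it and 11 were neither. The higher ones read JAK1, JAK2 and SOCS3, and the lower ones STAT6 and CISH. Here the background was 10.3% higher and 5.16% lower, against 17.6% of member probes in each direction, or 3 probes each. Over the member probes the median difference was 0.29 in SkBr3/Lap, beside -0.10 over all probes, and 0.51 in BT474/Lap, beside -0.05. At least 2-fold higher in both clones were 2.69% of all probes, and 1.23% were at least 2-fold lower in both. Among the members these were 1 SOCS3 probe and both CISH probes.

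**Figure D1:**
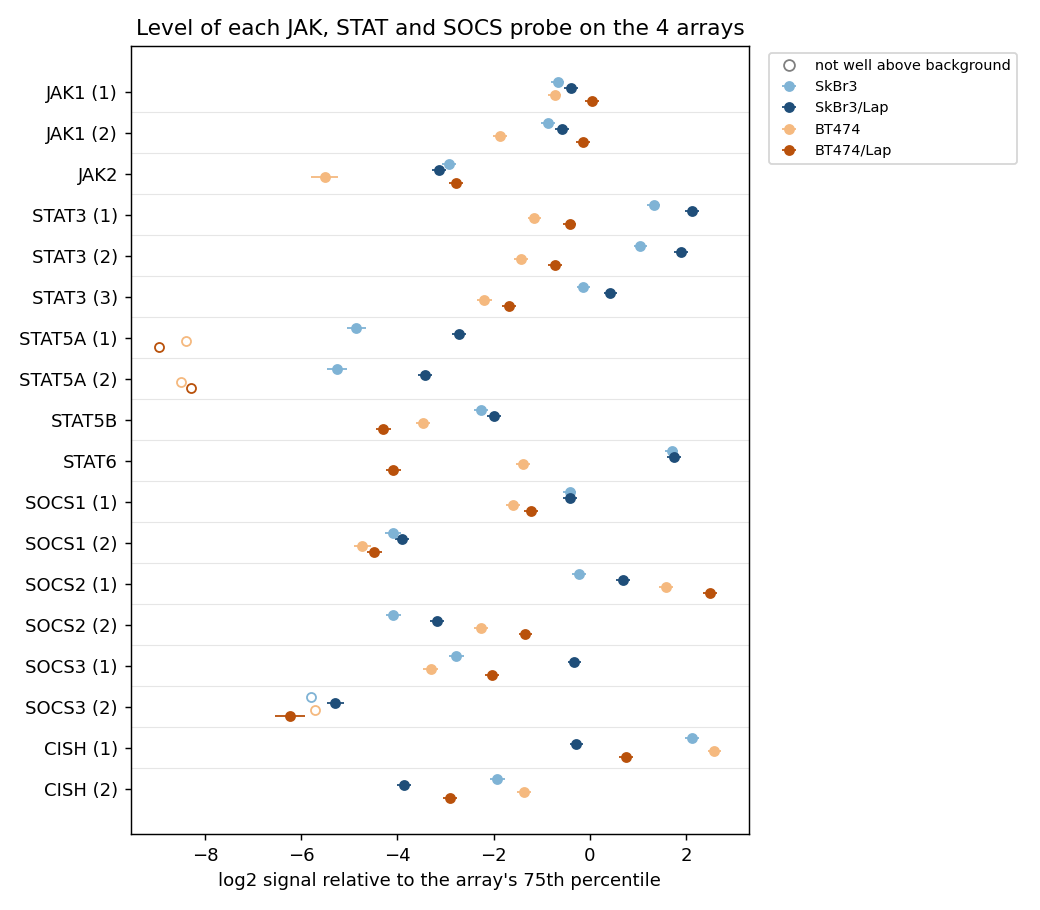
Level of each member probe on the 4 arrays, as log2 signal relative to the array's 75th percentile. Bars are the software's error within an array, open circles are signals not well above background, and numbers in brackets count the probes of a gene in the order of the text. Levels can be compared along a row and not between rows. For both CISH probes the 2 clones lie to the left of both parents, and for SOCS3 (1) both clones lie to the right.

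CISH encodes an inhibitor that is induced by STAT5 and binds activated cytokine receptors. Probe A_23_P144096 had a signal of 4896 in SkBr3 against 1703 in its clone, and of 6976 in BT474 against 2835 in its clone. Both clones were below both parents, and the order of levels was BT474, SkBr3, BT474/Lap and SkBr3/Lap, each step larger than its error. The difference was -2.42 ± 0.20 in SkBr3/Lap, which is 5.35-fold lower, and -1.84 ± 0.20 in BT474/Lap, which is 3.57-fold lower. Probe A_24_P97465 was much dimmer, with signals of 295, 143, 447 and 223. Its levels had the same order, and the clone of SkBr3 differed by -1.94 ± 0.21 and that of BT474 by -1.54 ± 0.21. No other member was at least 2-fold lower in both clones.

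SOCS3, which blocks JAK kinases at receptors that contain gp130 and is a classic STAT3 target, was read by probe A_23_P207058 with a signal of 164 in SkBr3 against 1659 in its clone, and of 116 in BT474 against 412 in its clone. Both clones were above both parents. The difference was 2.44 ± 0.21 in SkBr3/Lap, or 5.44-fold higher, and 1.29 ± 0.21 in BT474/Lap, or 2.44-fold higher. With normexp background correction and quantile normalization the BT474/Lap value was 0.87, under 2-fold. The other probe, A_23_P351069, matched the same transcript but had signals of 20.2, 52.9, 22 and 22.4, and it was not well above background in either parent. It gave a limit of at least 1.41-fold higher in SkBr3/Lap and no fold in BT474/Lap. On the log2 scale the probes' differences lay 1.95 apart in SkBr3/Lap and 1.80 apart in BT474/Lap. Such a spread was also taken over 3566 genes with several probes past the filter and well above background on every array. Its median was 0.28 in each clone, and its 90th percentile was 1.00 in SkBr3/Lap and 0.86 in BT474/Lap. The second SOCS3 probe met neither condition, so whether its distance is unusual for so dim a probe was not tested. The SOCS3 call thus rests on 1 probe.

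SOCS2, a regulator of growth hormone signaling, was just under 2-fold higher in both clones. Probe A_23_P128215 had signals of 957, 3350, 3496 and 9494, and probe A_24_P230675 had 65.9, 229, 242 and 666. The order was BT474/Lap, BT474, SkBr3/Lap and SkBr3 with both, so the cell lines did not overlap. The differences were 0.91 ± 0.20 and 0.90 ± 0.22 in SkBr3/Lap and 0.90 ± 0.20 and 0.92 ± 0.21 in BT474/Lap. Scaling to the 75th percentile of the probes well above background put all 4 values past 2-fold. Between the parents, BT474 was 3.51-fold and 3.54-fold above SkBr3.

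SOCS1, an inhibitor that binds the JAK kinases directly, lay close to its parent in both clones. Probe A_23_P420196 had signals of 831, 1556, 382 and 720 on the 4 arrays. Its difference was 0.01 ± 0.20 in SkBr3/Lap and 0.38 ± 0.20 in BT474/Lap. Probe A_24_P48014, with signals of 65.5, 139, 43.6 and 75.4, gave 0.19 ± 0.22 and 0.25 ± 0.24. Both SkBr3 arrays were above both BT474 arrays, and the SkBr3 pair did not differ beyond its error with either probe.

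**Figure D2:**
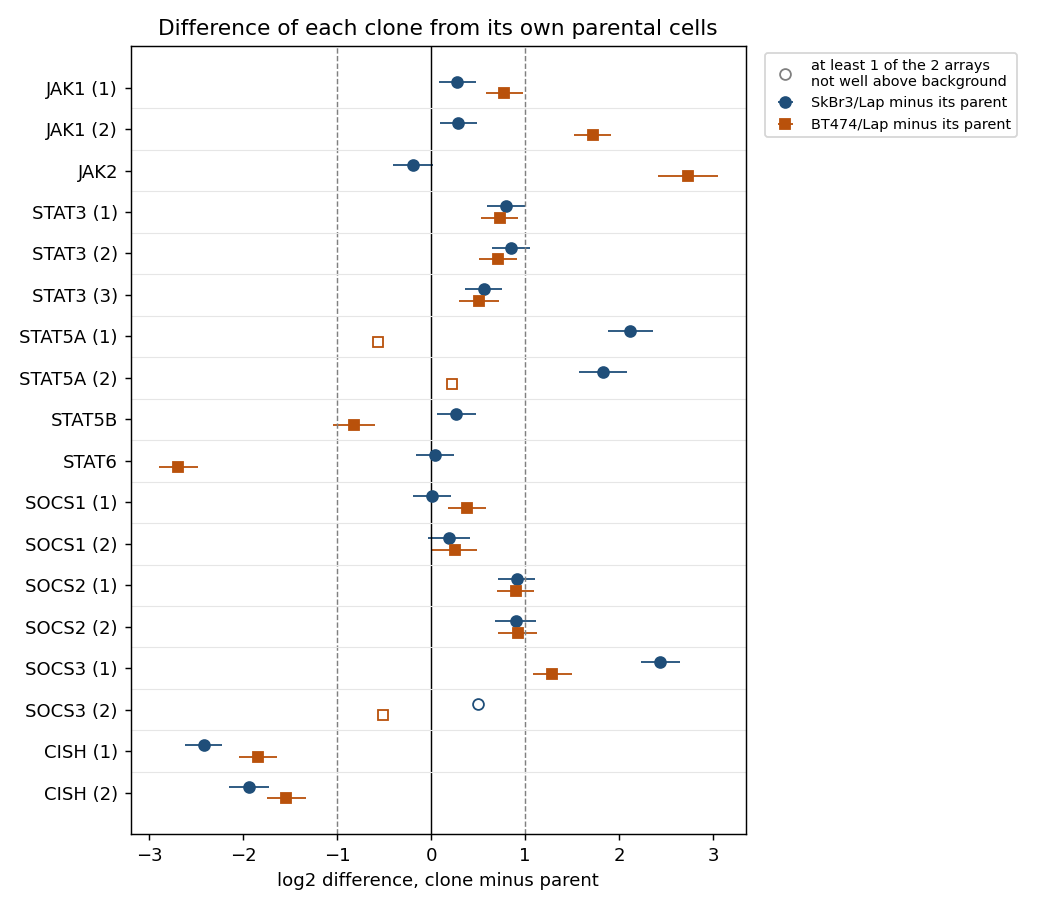
Difference in level between each clone and its parent for the 18 member probes, on the log2 scale. Bars are the software's error of the difference, dashed lines mark 2-fold, and open symbols have at least 1 array not well above background. CISH is on the left in both clones, while JAK2 and STAT6 lie near 0 in SkBr3/Lap (-0.19 and 0.04) and far from it in BT474/Lap (2.73 and -2.69).

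The JAK2 probe and 1 of 2 JAK1 probes were at least 2-fold above the parent in BT474/Lap, and none of the 3 was 2-fold from it in SkBr3/Lap. JAK2, the kinase of the prolactin, growth hormone and erythropoietin receptors, had 1 probe, A_23_P123608, spotted 10 times. Its signal was 146 in SkBr3 and 237 in its clone, while it was 25.3 in BT474 and 245 in its clone. BT474 stood alone as the low array, and the other 3 lay close together, with neighbors that differed by no more than their error. The 10 spots ranged from 18.6 to 35 on the BT474 array, where 9 of 10 were well above background, and from 221 to 266 on the BT474/Lap array, without overlap. The difference was 2.73 ± 0.32 in BT474/Lap, or 6.66-fold higher, and -0.19 ± 0.21 in SkBr3/Lap. The size of the BT474/Lap value depended on the correction of a dim signal and was 1.35 with normexp and quantile normalization.

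JAK1, which pairs with receptors of the IL-6, interferon and IL-4 families, had probe A_23_P97005 with signals of 699, 1583, 698 and 1735 and probe A_24_P410678 with 608, 1385, 319 and 1525. BT474/Lap was the highest and BT474 the lowest array with both. In BT474/Lap the first gave 0.78 ± 0.20 and the second 1.72 ± 0.20, a 3.30-fold difference, so the probes stood 0.95 apart and on opposite sides of 2-fold. The first was at 1.06 with the percentile over probes well above background. In SkBr3/Lap they gave 0.28 ± 0.20 and 0.29 ± 0.20. The probes parted on the BT474 array, where the first equalled SkBr3 within its error (-0.06) and the second was 1.98-fold lower.

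STAT3, the STAT of IL-6-type cytokines, was higher in both clones with all 3 probes, each under 2-fold. Probe A_23_P107206, spotted 10 times, had signals of 2795, 9046, 522 and 1256. Its spots did not overlap between any arrays, with 2617 to 2918, 8319 to 9421, 494 to 563 and 1159 to 1368. The difference was 0.80 ± 0.20 in SkBr3/Lap and 0.73 ± 0.20 in BT474/Lap. Probe A_24_P116805 gave 0.85 ± 0.20 and 0.71 ± 0.20, and probe A_23_P100795 gave 0.56 ± 0.20 and 0.51 ± 0.21. The order was SkBr3/Lap, SkBr3, BT474/Lap and BT474 with each probe, and SkBr3 was 4.18-fold to 5.57-fold above BT474. With the percentile over probes well above background, probe A_23_P107206 passed 2-fold in both clones (1.05 and 1.01) and probe A_24_P116805 in SkBr3/Lap (1.10), which also gave 1.01 there with median scaling.

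STAT5A and STAT5B are near-identical paralogs that respond to prolactin and growth hormone and lie next to each other, beside STAT3, on chromosome 17. Whether a probe of one also takes up the other's transcript was not tested. STAT5A probe A_23_P207367 had signals of 38.7 in SkBr3 and 314 in SkBr3/Lap, and the BT474 pair gave 3.42 and 3.36, not well above background. Probe A_24_P173088 had 29.3 and 194 in the SkBr3 pair, and 3.2 and 5.41 in the BT474 pair. STAT5A was thus measured in SkBr3 cells and stayed at background in BT474 cells. In SkBr3/Lap it was 4.36-fold and 3.56-fold higher than in the parent, with differences of 2.12 ± 0.24 and 1.83 ± 0.26. No fold is given in BT474. Against the lowest signal well above background on the BT474 arrays, SkBr3 was at least 2.52-fold and 1.9-fold above BT474, and SkBr3/Lap at least 17.3-fold and 10.7-fold above BT474/Lap.

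STAT5B, read by probe A_23_P100788, was measured on every array, with signals of 233 and 522 in the SkBr3 pair and 105 and 86 in the BT474 pair. Its difference was 0.27 ± 0.21 in SkBr3/Lap. In BT474/Lap it was -0.82 ± 0.22, and past 2-fold with median scaling (-1.03) and with quantile normalization (-1.07). The neighboring genes on chromosome 17 thus gave different values within a clone. In SkBr3/Lap, STAT5A was at 2.12 and 1.83 and STAT5B at 0.27, and in BT474/Lap, STAT3 was higher and STAT5B lower than in the parent.

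STAT6, the STAT of IL-4 and IL-13, had 1 probe, A_23_P47879, with signals of 3632 and 6954 in the SkBr3 pair and 442 and 99.6 in the BT474 pair. The SkBr3 arrays did not differ beyond their error, with a difference of 0.04 ± 0.20. Both were far above BT474, by 8.55-fold for the parent, and BT474/Lap was lower again. The difference in BT474/Lap was -2.69 ± 0.21, or 6.43-fold lower.

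A limma model over both lines, with a block for the line and 1 residual degree of freedom, called 0 of the 17 member probes at an adjusted p (Benjamini-Hochberg) below 0.05, and 0% of all 25927 probes. An unadjusted p below 0.05 was found for 3 of the 17 and for 3.47% of all probes. The 3 were both CISH probes, with a mean difference of -2.13 (SE 0.44) and -1.74 (SE 0.43), and SOCS3 probe A_23_P207058, with 1.87 (SE 0.52), and the limma adjusted p was 0.999982 for each. All 3 lay in the same direction in both clones. A model with slide in place of cell line fits SkBr3/Lap exactly, as that array is alone on its slide. Its resistance term compares BT474/Lap with the parents only, so it cannot separate slide from resistance.

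The probes with the levels nearest to those of the members at least 2-fold from a parent were sought among 16398 probes of 11517 genes well above background on all 4 arrays. Likeness was the Euclidean distance over the 4 levels after centering each probe, in log2 units, and it describes 4 arrays only. STAT5A, at background in BT474 cells, was left out. The nearest to SOCS3 probe A_23_P207058 were MAP3K14 at 0.15, FAM89A at 0.25 and NR3C2 at 0.31. To CISH probe A_23_P144096 they were RGS3 at 0.24, PCBP4 at 0.47 and ZBED3 at 0.48, and to CISH probe A_24_P97465 they were RGS3 at 0.23, PEG10 at 0.25 and PCBP4 at 0.28. To STAT6 they were BHLHE40 at 0.60, EDN1 at 0.64 and AMPD2 at 0.70. For JAK2 they were EPB41L1 at 0.45, ARMC9 at 0.50 and PLCD3 at 0.59, and for JAK1 probe A_24_P410678 HSD11B2 at 0.07, DBP at 0.19 and PACSIN1 at 0.26.

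The rest of the pathway was read by 6 lists, with each gene given by its brightest probe, and their counts stand beside the shares and medians of all probes given above. Of the ligands, 16 of 17 had a probe and 3 passed the filter, so most were near background in these cells. IL6 passed through the SkBr3/Lap array alone and IL11 through the SkBr3 array alone, so the 3 are given by their values, with no count or median. IL6, the ligand of the gp130 receptor that activates STAT3, was at background in SkBr3 (5.93) and had a signal of 1695 in SkBr3/Lap, at least 56.9-fold higher. The BT474 pair gave 4.8 and 8.15, both at background. CLCF1, another gp130 ligand, had signals of 38.1 and 304 in the SkBr3 pair and 179 and 166 in the BT474 pair, with a difference of 2.10 ± 0.26 in SkBr3/Lap. IL11 had 305 and 58.3, then 70.7 and 49.5, and was lower in both clones, at -3.28 ± 0.22 and -1.05 ± 0.24. Below the filter, CTF1 gave -1.15 ± 0.37 and EPO at least 4.32-fold lower in SkBr3/Lap, and IL7 at least 3.35-fold higher in BT474/Lap. IL4, IL13 and PRL, ligands of STAT6 and STAT5 signaling, were at background on all 4 arrays.

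Of the receptors, 18 of 19 had a probe and 15 passed the filter. In SkBr3/Lap 14 of these were measured on both arrays, of which 3 were at least 2-fold higher and 11 were within 2-fold. The other, GHR, the growth hormone receptor, was at background on both SkBr3 arrays and has no fold, and the median over all 15 was 0.52. LIFR, the receptor of leukemia inhibitory factor, had signals of 145 and 5901 in the SkBr3 pair and 336 and 656 in the BT474 pair, with 4.45 ± 0.21 in SkBr3/Lap. PRLR, the prolactin receptor, had 180 and 985, then 798 and 555, so it was higher in SkBr3/Lap (1.56 ± 0.21) and lower in BT474/Lap (-1.06 ± 0.20). IFNGR1, a chain of the interferon gamma receptor, was at 1.45 ± 0.20 in SkBr3/Lap. OSMR was at least 2.97-fold and CSF3R at least 2.84-fold higher in SkBr3/Lap, both below the filter. In BT474/Lap 3 receptors were at least 2-fold higher, 2 were lower and 10 were within 2-fold, with a median of 0.04. These were EPOR, the erythropoietin receptor (1.41 ± 0.20), IL6R (1.23 ± 0.20) and IFNAR2 (1.10 ± 0.32), and, among the lower ones, IL4R (-1.09 ± 0.20) and PRLR. Of these, IFNAR2 was at 0.23 with normexp and quantile normalization, and IL4R and PRLR at -0.81 and -0.78 with the percentile over probes well above background, each under 2-fold. IL4R, which signals through STAT6, had signals of 8264 and 29635 in the SkBr3 pair and 4222 and 2873 in the BT474 pair.

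**Figure D3:**
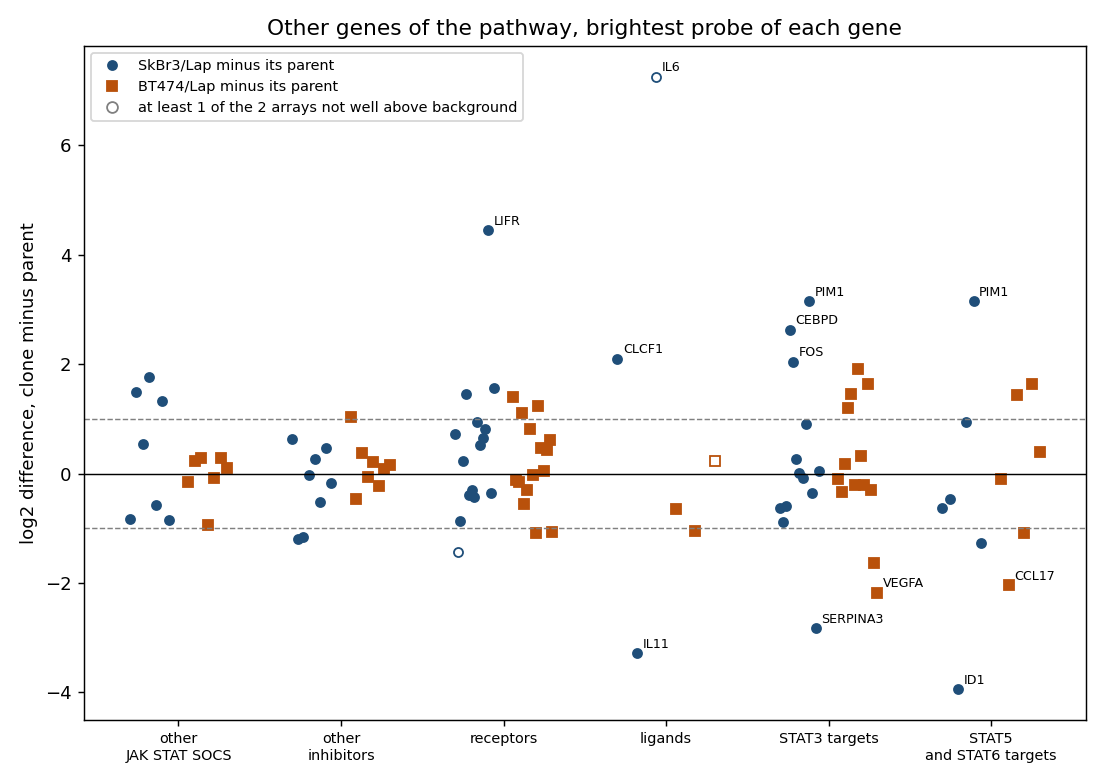
Difference in level between each clone and its parent for the other genes of the pathway that passed the filter, on the log2 scale, grouped by list. Each symbol is the brightest probe of a gene, open symbols have at least 1 array not well above background, dashed lines mark 2-fold, and genes at 2 or more on either side of 0 are named. PIM1 is in 2 lists and lies at 3.15 in SkBr3/Lap and 1.64 in BT474/Lap.

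Of 9 other JAK, STAT and SOCS genes, all with a probe, 7 passed the filter. In SkBr3/Lap 3 were at least 2-fold higher and 0 lower, with a median of 0.54, and in BT474/Lap 0 were higher and 0 lower, with a median of 0.10. The 3 were SOCS7 (1.76 ± 0.23), SOCS5 (1.50 ± 0.20) and STAT2 (1.33 ± 0.21), the last a part of the complex that answers type I interferon. SOCS7 had signals of 71.5 and 452 in the SkBr3 pair and 515 and 389 in the BT474 pair. A second, dimmer SOCS7 probe gave 2.11 ± 0.33 in SkBr3/Lap and -0.15 ± 0.21 in BT474/Lap. Of 9 other inhibitors (PIAS proteins, phosphatases and an adaptor), 8 passed the filter. In SkBr3/Lap 0 were higher and 2 lower, PIAS2 (-1.19 ± 0.20) and PIAS3 (-1.15 ± 0.20), with a median of -0.10. In BT474/Lap 1 was higher, PIAS1 (1.03 ± 0.20), and 0 were lower, with a median of 0.12. A second, dimmer PIAS1 probe gave 0.34 ± 0.21 there, under 2-fold. In SkBr3/Lap a second PIAS3 probe, below the filter, gave -0.13 ± 0.31, and a second PIAS2 probe gave -2.18 ± 0.23. The adaptor SH2B3, below the filter, was at least 2.78-fold higher in SkBr3/Lap.

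Known STAT3 targets lay on both sides of their parents. Of 14 with a probe 13 passed the filter, and 3 were at least 2-fold higher and 1 lower in SkBr3/Lap, with a median of 0.02, against 4 higher and 2 lower in BT474/Lap, with a median of -0.09. PIM1, a serine/threonine kinase, had signals of 266, 4389, 546 and 2476 and was higher in both clones (3.15 ± 0.20 and 1.64 ± 0.20). FOS, a part of AP-1, was also higher in both (2.05 ± 0.21 and 1.46 ± 0.22), and CEBPD, a transcription factor of the acute phase, was at 2.63 ± 0.20 and 1.20 ± 0.20. SERPINA3, an acute-phase protease inhibitor, was lower in both (-2.83 ± 0.22 and -1.63 ± 0.20), with signals of 225, 59.1, 1895 and 891. LRG1, another acute-phase gene, was at 1.91 ± 0.21 and VEGFA, the angiogenic growth factor, at -2.18 ± 0.20 in BT474/Lap, and in SkBr3/Lap they were at 0.02 and 0.05. With normexp and quantile normalization FOS in BT474/Lap was at 0.88, under 2-fold.

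Of 14 STAT5 and STAT6 targets 13 had a probe and 6 passed the filter. In SkBr3/Lap 1 was at least 2-fold higher and 2 lower, with a median of -0.55, and in BT474/Lap 2 were higher and 2 lower, with a median of 0.15. PIM1 is on this list too. ID1, an inhibitor of differentiation, had signals of 34389, 4158, 14120 and 55061, and was lower in SkBr3/Lap (-3.94 ± 0.20) and higher in BT474/Lap (1.43 ± 0.20). PIM2, a kinase related to PIM1, was lower in SkBr3/Lap (-1.27 ± 0.20). CCL17, a chemokine induced through STAT6, had signals of 484, 649, 596 and 210 and was lower in BT474/Lap (-2.04 ± 0.21). The other lower gene of this list in BT474/Lap is IL4R, itself a STAT6 target and given above. Of the other STAT6 targets listed, FCER2, CCL26 and ALOX15 were at background on both BT474 arrays. The lipoxygenase gene ALOX15, below the filter, was at -1.03 ± 0.36 in SkBr3/Lap. CSN2, the milk protein beta-casein, was at background on all 4 arrays.

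**Figure D4:**
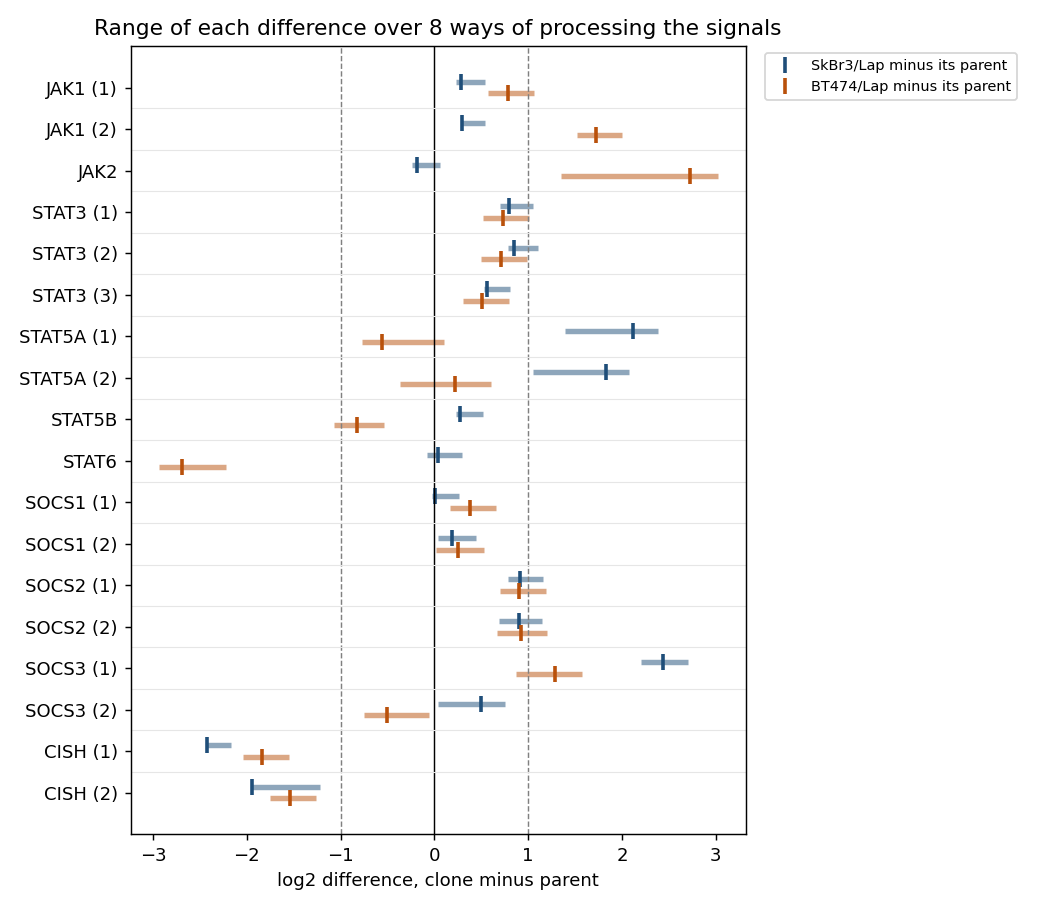
Range of each member difference over 8 ways of processing the signals, on the log2 scale, with a tick at the value given in the text and dashed lines at 2-fold. The ranges of CISH, STAT6 in BT474/Lap and STAT5A in SkBr3/Lap stay beyond 2-fold, SOCS3 (1) in BT474/Lap reaches 0.87, and JAK2 in SkBr3/Lap crosses 0.

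The calls of the members were recomputed with other scalings, normalizations and background corrections. Of the 11 differences of at least 2-fold, 10 stayed past 2-fold in 7 of 7 alternatives, SOCS3 in BT474/Lap being the exception with 6 of 7. Over both probes the differences of CISH lay between -2.42 and -1.22 in SkBr3/Lap, and between -2.04 and -1.26 in BT474/Lap. STAT6 in BT474/Lap ranged from -2.94 to -2.22 and JAK2 from 1.35 to 3.02. Values near 0 in SkBr3/Lap took either sign, namely JAK2 (-0.24 to 0.06), STAT6 (-0.08 to 0.29) and SOCS1 probe A_23_P420196 (-0.03 to 0.26), and no direction is given for them.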

How the data were processed

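Total RNA of 4 cultures was labelled with Cy3 and hybridised to 1 Agilent 4 × 44 K array each. The deposited files hold, per spot, the processed intensity and its error after background subtraction by Feature Extraction 10.1.1.1, and the median pixel intensities. A log2 table by the authors, centred per probe and shifted per array, was deposited as well; its column medians were 0.12, -0.20, 0.11 and -0.05 for SkBr3, SkBr3/Lap, BT474 and BT474/Lap. Differences between its columns were within 0.617 of those computed here.

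Log2 processed signals were averaged over a probe's spots, less the 75th percentile of the array's 41000 probes. Probes with a signal of at least 100 on at least 1 array were kept (25927, 63.2%). Well above background means that the software marked at least 50% of a probe's spots as such. If 1 signal of a pair was not, the higher of it and the lowest signal so marked on that array (13.3 to 16) was used and the fold is a limit. Accessions matched RefSeq (GRCh38.p14) for 23680 probes. The array design names build hg18, so RefSeq coordinates are given for the printed promoter sequences only. Motifs were searched as letters, both strands. Software: R 4.3.3, limma 3.58.1, Python 3.11.15, numpy 2.4.6 and pandas 2.3.3. The number of arrays limits the precision. The limma fit was also run on simulated arrays, with the changed probes raised equally in both clones. That run does not tell how often changes like those of the members would be found.

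Members and lists were chosen with earlier results of these data known. All members are named by every probe, and genes of the lists where they are among the 3 highest or 3 lowest at 2-fold in a clone, measured on both arrays, or where a limit reaches 2-fold. CEBPD in BT474/Lap, LRG1 and VEGFA in SkBr3/Lap, GHR, GUSB, the markers and the genes at background were named after their values were seen. IL11RA, IL15, BCL6 and COL1A1 are not analysed here. Alternatives were median scaling, the percentile over probes well above background, quantile normalization, normexp (offset 50, median intensities) with quantile normalization, the deposited table, 16 added to the signal, outlier spots left out, no filter, probes well above background on all arrays, a 3-fold threshold, and limma without a block or with slide. Applying them to the lists was added after the data were seen.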

Additional observations from a re-analysis of the deposited data

Results flagged for a closer look

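Opposite signs in the clones were found for 12 genes measured on all 4 arrays, and with 1 array per group the difference between clones was not tested. Among the members, the difference in SkBr3/Lap minus that in BT474/Lap was -2.93 for JAK2, 2.73 for STAT6 and 1.09 for STAT5B. The SkBr3/Lap values of JAK2 and STAT6 were within the software's error and took either sign under other processing, and the STAT5B value in BT474/Lap was past 2-fold under 2 of 7 alternatives (-1.03 and -1.07). Among the receptors it was 2.62 for PRLR, 2.04 for IL4R and 2.0 for IFNGR1. Among the other genes it was 2.75 for CLCF1, 2.70 for SOCS7, 2.23 for VEGFA (0.05 in SkBr3/Lap, within the error), -5.37 for ID1, -1.53 for PIAS3 and -1.66 for PIM2. A second SOCS7 probe was within the error in BT474/Lap (-0.15 ± 0.21), so the opposite sign of SOCS7 rests on its brightest probe. Slide and clone cannot be told apart for the SkBr3 side of each value.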

How the results depend on the processing

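The counts of member probes kept within 1.5 times of the values given, except for these. In SkBr3/Lap the count of probes at least 2-fold higher was 6 in place of 3 with median scaling, 7 with the percentile over probes well above background, and 1 when only probes well above background on all 4 arrays were used, which leaves out STAT5A. In BT474/Lap it was 7 in place of 3 with the percentile over probes well above background. These scalings move all probes: the median of all differences shifted by 0.16 and -0.21 with median scaling and by 0.25 and 0.28 with that percentile, in SkBr3/Lap and BT474/Lap. Leaving aside the model with slide, which compares BT474/Lap with the parents only, the count passing limma was 0 under every alternative run. Among pathway genes in BT474/Lap, FOS was under 2-fold in at least 1 alternative (0.88, the value nearest 0), as did IFNAR2 (0.23), PIAS1 (0.82), IL4R (-0.81), PRLR (-0.78) and IL11 (-0.68), and in SkBr3/Lap PIAS2 (-0.88), PIAS3 (-0.90), CTF1 (-0.42) and ALOX15 (-0.32). No called difference of a member or of the 32 named pathway values changed sign. The block in limma was the cell line, which pairs each clone with its own parent. The replicate number, which is 1 in every group, gave no further pairing. A dim signal limits JAK2 in BT474, STAT5A in SkBr3 and the second SOCS3 probe.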
